A study of Mus musculus with 12 samples.

Results

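Osteocalcin and matrix Gla protein are small calcium-binding proteins of bone and cartilage that need vitamin K to mature. Their messenger RNAs, with those of the enzymes that modify them, were followed here in mouse femur. The 5 genes were chosen by symbol: Bglap and Bglap2, neighbouring copies of the osteocalcin gene; Mgp, matrix Gla protein; Ggcx, the gamma-carboxylase; and Vkorc1, the vitamin K epoxide reductase. They are 5 of 19067 gene symbols in the diaphysis table and 5 of 18778 in the metaphysis table, with 6 transcripts in each, since Bglap has 2. RNA came from the diaphysis (the shaft) and from the metaphysis (the flared end beside the growth plate) of femurs of male mice aged 5 weeks and of mixed background. The 4 groups were diaphysis Dlx3Oc-cKO, diaphysis wild type, metaphysis Dlx3Oc-cKO and metaphysis wild type, with 3 libraries each (12 in all). The Dlx3Oc-cKO mice (cKO below) have a conditional deletion of Dlx3, a homeobox transcription factor of bone-forming cells, and the wild type (WT below) is given as Dlx3+/+. The labels do not name the Cre driver, nor do they say whether WT mice carried Cre. In published work on mice of this name, Cre is driven by an osteocalcin promoter, that of the gene family measured here, so deletion is limited to cells that have switched that promoter on.

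Gamma-carboxylation turns chosen glutamates of a protein into Gla residues, which bind calcium. Ggcx carries out the reaction with reduced vitamin K, and Vkorc1 regenerates the reduced vitamin from its epoxide, so that the pair forms a cycle. Osteocalcin is a product of mature osteoblasts that is deposited in bone matrix and also circulates as a hormone, whereas Mgp, made by chondrocytes and vascular smooth muscle, is an inhibitor of mineralization.

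The coding starts of the osteocalcin copies Bglap and Bglap2 on chromosome 3 are shown because they hold most of the coding differences of the pair. The untranslated parts were not compared. Coding bases 1 to 75 are given 5′ to 3′ from the GENCODE M1 transcripts of build NCBIM37 (mm9), with capitals at the 3 positions where the copies differ.
Bglap: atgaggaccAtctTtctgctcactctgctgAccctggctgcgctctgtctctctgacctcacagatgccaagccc
Bglap2: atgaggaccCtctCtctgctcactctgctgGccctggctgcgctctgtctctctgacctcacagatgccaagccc
Over the coding sequence of 288 bases, Bglap and Bglap2 differ at 4 positions (98.6% identity), 3 of which lie in the stretch shown. The longest run without a difference is 241 bases, and 192 of the 239 windows of 50 bases (80.3%) are the same in both copies. A read within such a window cannot be assigned to either copy from its sequence, and how shared reads were counted is not given in the sources used here. Levels of Bglap and Bglap2 taken separately are therefore uncertain, and their sum is used beside them.

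In the same build both copies lie on the minus strand of chromosome 3, with Bglap2 at chr3:88181658-88182621 and Bglap at chr3:88187423-88188386, 4801 bases apart. Mgp is at chr6:136820957-136824326 on the minus strand, Ggcx at chr6:72364302-72380706 on the plus strand and Vkorc1 at chr7:135029741-135039131 on the minus strand. The annotated interval of Vkorc1 overlaps Prss53, which is on the same strand, and the other 4 genes overlap no other gene. RPKM, the unit of every level below, scales the reads of a whole transcript to its length and to the mapped reads of the library.

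Runx2, the vitamin D receptor and homeodomain proteins including Dlx3 and Dlx5 are known regulators of osteocalcin transcription. The Bglap promoter is therefore shown beside the results for those genes. Whether each raises or lowers osteocalcin in this tissue was not tested. The 250 bases before the Bglap start are given from RefSeq (build GRCm38.p6, chr3:88384467-88384716, minus strand). Capitals mark a Runx core, a homeodomain core and a TATA box, in that order.
Bglap promoter: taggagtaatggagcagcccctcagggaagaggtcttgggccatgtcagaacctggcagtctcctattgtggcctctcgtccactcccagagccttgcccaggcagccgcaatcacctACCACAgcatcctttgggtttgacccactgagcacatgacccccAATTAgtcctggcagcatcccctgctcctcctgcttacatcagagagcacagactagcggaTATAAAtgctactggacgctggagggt
The Runx core ACCACA (searched on both strands, as ACCACA or TGTGGT) stands 132 to 127 bases before the start and occurs in 14.0% of the 32851 RefSeq promoter windows of this length. The homeodomain core AATTA (searched as AATTA or TAATT) stands 88 to 84 bases before the start and occurs in 25.0% of windows. TATAAA, searched on the gene's strand only, stands 27 to 22 bases before the start and occurs in 7.59%. The motifs do not overlap, and a match describes the letters and not a bound site. Of the 5 genes, Bglap, Ggcx and Vkorc1 matched a promoter in the table.

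Depth, read from the spacing of the lowest values, was 18.4 to 53.2 M reads (M, mega) per diaphysis library and 24.4 to 34.3 M reads per metaphysis library. Dlx3 itself had 1.98, 2.80 and 3.24 RPKM in metaphysis cKO libraries, against 8.37, 8.90 and 10.1 RPKM in metaphysis WT libraries. In the diaphysis it had 0.763, 1.55 and 1.17 RPKM in cKO libraries, against 3.22, 7.64 and 13.1 RPKM in WT libraries, so that the deleted gene was lower in every cKO library. Diaphysis WT replicate 1 stood apart: globin transcripts took 32.6% of its summed RPKM, against 15.1% to 26.5% in the other 5 diaphysis libraries, and the summed RPKM of 10 osteoblast genes was 5298 in it, against 12878 to 31128 in the others. Differences between genotypes in the diaphysis are therefore also given without it. Nothing in the labels states that each library is a different animal. The p-values given here therefore reflect only how far these libraries vary, which may include technical variation. In bulk tissue, fewer cells of a type and less RNA per cell cannot be told apart.

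**Figure D1:**
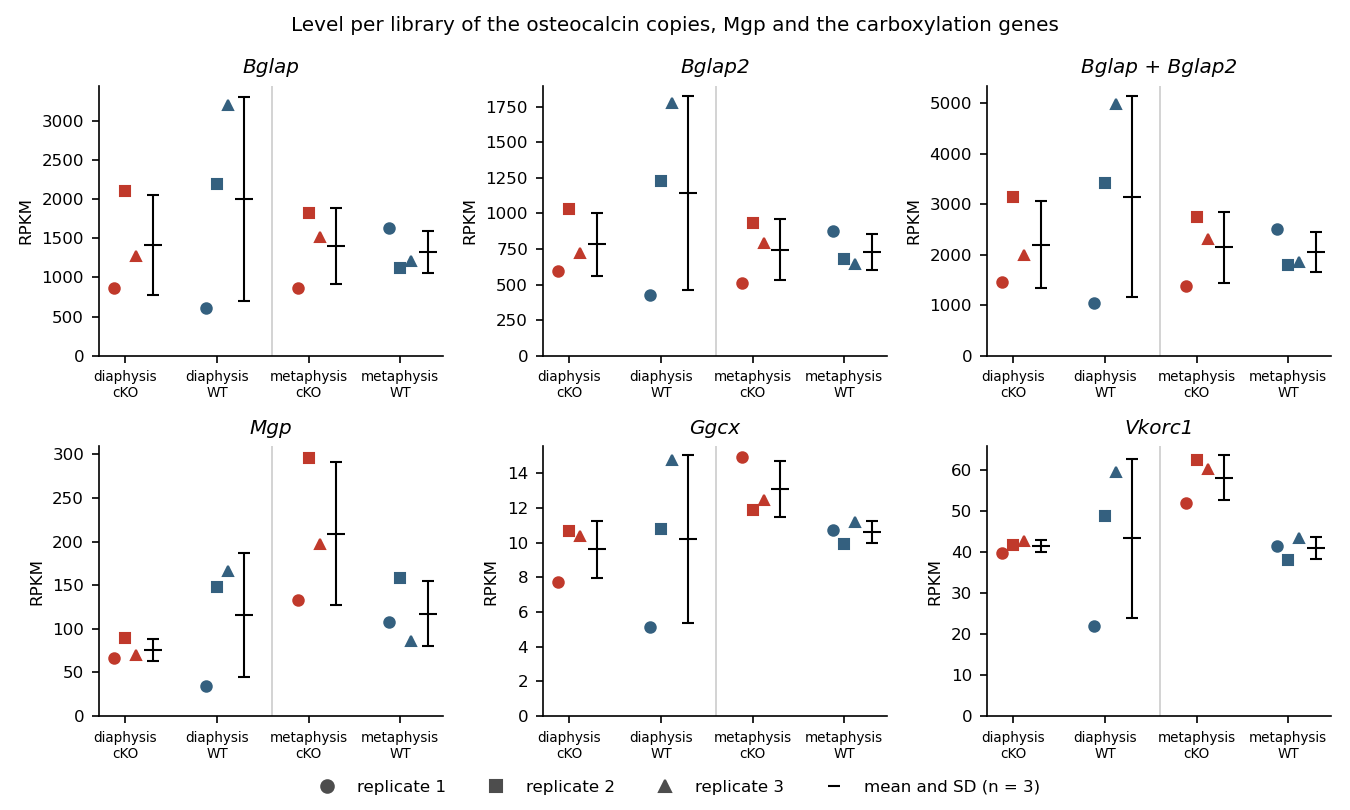
Level in RPKM (linear axes from 0) of each gene and of the summed osteocalcin copies in every library, by region and genotype; circles, squares and triangles are replicates 1, 2 and 3, and the bar shows the mean with its SD (n = 3). In the metaphysis every Ggcx and Vkorc1 value of cKO lies above every WT value, while the other panels overlap, and diaphysis WT replicate 1 is the lowest diaphysis library in all panels.

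Osteocalcin was among the most abundant transcripts of both regions. Bglap ranked 9 to 74 among the genes of a diaphysis library and 14 to 27 among those of a metaphysis library. Bglap2 ranked 12 to 122 in diaphysis libraries and 33 to 76 in metaphysis libraries. Mgp ranked 156 to 548 in metaphysis libraries, Vkorc1 823 to 1541 and Ggcx 4141 to 5770. These levels correspond to about 6953 to 43950 reads of a library for Bglap and 390 to 1621 for Ggcx.

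In the metaphysis, where 1441 of 12641 genes passed the threshold (11.4%), the osteocalcin copies did not. Bglap had 869, 1819 and 1522 RPKM in cKO metaphyses, against 1637, 1126 and 1212 RPKM in WT metaphyses. The lowest and the highest of the 6 values were both cKO libraries. Its log2 fold change was 0.04 ± 0.28 (SE; limma, adjusted p = 0.946), with a 95% interval from -0.63 to 0.70. Bglap2 had 510, 936 and 792 RPKM in cKO libraries, against 876, 677 and 641 RPKM in WT libraries, in the same order as Bglap except among WT replicates 2 and 3. Its log2 fold change was 0.00 ± 0.23 (limma, adjusted p = 0.999; interval -0.55 to 0.55).

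The summed copies depend little on which copy a shared read was assigned to, as the annotated transcripts are of like length (440 bases for Bglap, 471 for Bglap2). They would still be off if such reads were dropped or counted for both. Their sum was 1380, 2755 and 2314 RPKM in cKO metaphyses, against 2513, 1803 and 1854 RPKM in WT metaphyses, a mean of 2149 ± 702 in cKO and 2056 ± 396 in WT (SD, n = 3 each). The difference was 0.02 on the log2 scale (exact 2-sided permutation test, p = 1.0), where 0.1 is the smallest p that 3 against 3 libraries can give. Entered as 1 row in the limma fit, the sum had an interval from -0.61 to 0.65. Bglap2 made up 37.0%, 34.0% and 34.2% of the sum in cKO metaphyses, against 34.8%, 37.5% and 34.6% in WT metaphyses (exact permutation test, p = 0.5). In the diaphysis its share was 40.9%, 32.8% and 36.1% in cKO libraries, against 40.8%, 35.9% and 35.6% in WT libraries (exact permutation test, p = 1.0), a difference of -0.86 percentage points, or 0.82 without WT replicate 1. The shares of the genotypes overlapped in both regions, and the highest share of each genotype in the diaphysis fell in the library with the lowest osteocalcin sum and the highest globin share of that genotype.

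The second Bglap transcript, NM_001037939, was a small part of the gene. It took 2.93% to 4.15% of Bglap RPKM in metaphysis libraries. In the diaphysis it took 7.31%, 3.28% and 3.22% in cKO libraries, against 3.13%, 2.36% and 2.70% in WT libraries, and the highest of these shares was in the shallowest library. All 5 genes passed the filter of at least 1 RPKM in 3 libraries in both regions.

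Most other osteoblast genes rose in cKO metaphyses. Of 10 tested, which do not include osteocalcin, 7 rose and none fell, beside 7.51% of genes called higher and 3.89% called lower. Their median log2 fold change was 0.98, against -0.04 over all genes. The matrix genes Col1a1 (0.45, limma adjusted p = 0.107), Col1a2 (0.30, limma adjusted p = 0.226) and Sparc (0.37, limma adjusted p = 0.119) did not pass. Ibsp, bone sialoprotein, had 1211, 1178 and 1175 RPKM in cKO libraries, against 491, 421 and 703 RPKM in WT libraries (log2 fold change 1.18 ± 0.18, limma adjusted p = 0.0151, and 0.0594 at most with 1 library left out). Spp1, osteopontin, rose by 1.35 (adjusted p = 0.0112), Alpl, alkaline phosphatase, by 1.23 (adjusted p = 0.00773) and Pth1r, the parathyroid hormone receptor, by 1.46 (adjusted p = 0.00554). Ibsp lost its call without cKO replicate 3 or WT replicate 1, whereas Spp1, Alpl and Pth1r passed with any 1 library left out. The 7 calls of the list became 4 without cKO replicate 3, where 105 of all genes passed, and 5 to 7 without any 1 other library.

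The ratio of osteocalcin to other bone matrix transcripts within a library does not depend on its scaling. The osteocalcin sum per Col1a1, the main collagen of bone, was 0.133, 0.296 and 0.221 in cKO metaphyses, against 0.342, 0.282 and 0.217 in WT metaphyses. The groups overlapped, with a difference of -0.42 on the log2 scale (exact permutation test, p = 0.5). Set against Ibsp, the sum was 1.14, 2.34 and 1.97 in cKO libraries, against 5.12, 4.28 and 2.64 in WT libraries. The 3 cKO ratios all lay below the 3 WT ratios, with a difference of -1.153 on the log2 scale (exact permutation test, p = 0.1, the smallest possible). In the diaphysis the ratio to Ibsp was 7.21, 6.32 and 4.06 in cKO libraries, against 10.02, 7.06 and 6.64 in WT libraries, and the groups overlapped (p = 0.3, exact permutation test). That difference was -0.45 on the log2 scale, and -0.27 without WT replicate 1. Set against Col1a2, another alternative denominator, the metaphysis groups overlapped (-0.28 on the log2 scale, exact permutation test, p = 0.6). The ratios to Ibsp and Col1a2 were not among the exact tests adjusted together below. Each ratio differs by unequal change of its parts and does not alone show which part changed. Taken singly in the metaphysis, Ibsp differed by 1.18 and the osteocalcin sum by 0.02 on the log2 scale. Ibsp had been called higher in these same libraries, so its ratio is no separate sign of a change in osteocalcin.

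**Figure D2:**
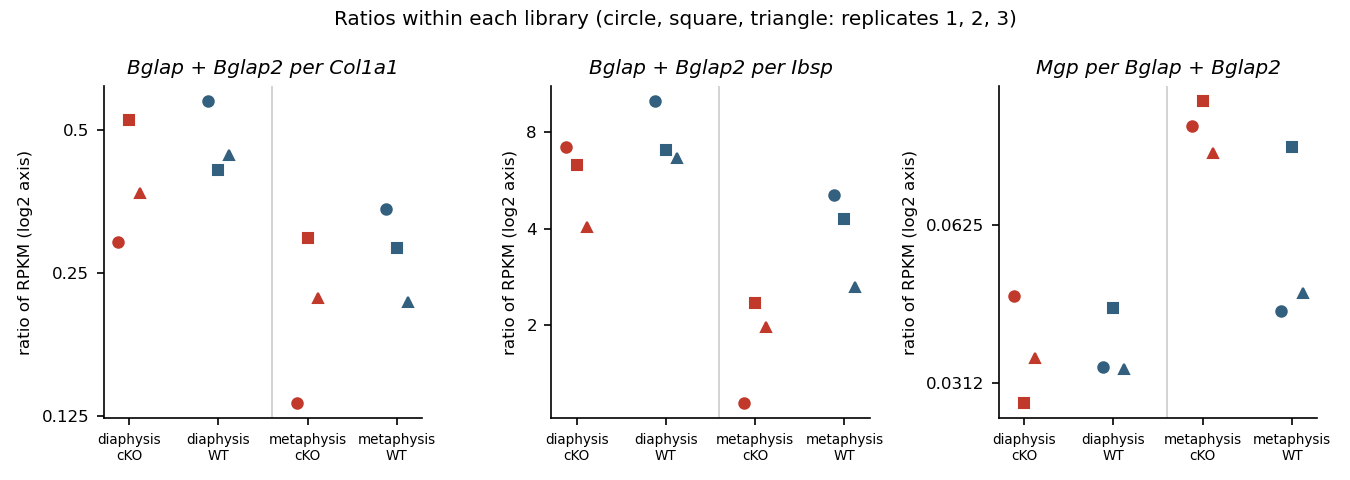
Ratios of RPKM within each library on log2 axes: the summed osteocalcin copies per Col1a1 and per Ibsp, and Mgp per summed osteocalcin, by region and genotype (3 libraries each, no error bars). Osteocalcin per Ibsp is 1.14 to 2.34 in cKO metaphyses, where Ibsp itself was called higher, and 2.64 to 5.12 in WT metaphyses. The other panels overlap between genotypes.

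Of 12 known regulators of the osteocalcin promoter tested in the metaphysis, 6 rose, beside 7.51% of all genes called higher. The deleted Dlx3 was the 1 that fell (log2 fold change -1.75, limma adjusted p = 0.00907), beside 3.89% of all genes called lower. The median of the 12 was 0.38, against -0.04 over all genes. Vdr, the vitamin D receptor, had 51.1, 70.01 and 45.3 RPKM in cKO libraries, against 20.0, 13.3 and 17.1 RPKM in WT libraries (1.71 ± 0.20, limma adjusted p = 0.0101). Runx2, the osteoblast master factor, had 29.4, 26.8 and 26.8 RPKM in cKO libraries, against 13.1, 13.7 and 16.2 RPKM in WT libraries (0.95 ± 0.11, limma adjusted p = 0.00943). Dlx5, a Distal-less factor related to Dlx3, had 33.2, 48.3 and 49.3 RPKM in cKO libraries, against 14.4, 16.0 and 19.2 RPKM in WT libraries (1.38 ± 0.18, limma adjusted p = 0.0115). In these genes every cKO value lay on the same side of every WT value, as for 37.1% of all genes in either direction. Sp7, Dlx6 and Fosl2 were the other 3 called higher. Runx2 and Sp7 are also in the osteoblast list above, so their calls are counted in both lists. Dlx3, Vdr and Runx2 passed with any 1 library left out, Dlx5, Sp7 and Dlx6 failed without cKO replicate 3 (adjusted p = 0.0645 at most), and Fosl2 passed in none of these fits. Atf4, a factor that works with Runx2 on osteocalcin, had 91.1, 110 and 103 RPKM in cKO libraries, against 101, 94.98 and 123 RPKM in WT libraries, with overlapping groups. Msx2, a homeodomain repressor of osteocalcin, was under 1 RPKM in every library.

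In the diaphysis none of the 12 regulators passed the threshold. Vdr had 23.5, 28.4 and 36.0 RPKM in cKO libraries, against 4.41, 10.2 and 19.5 RPKM in WT libraries, where the groups did not overlap, as for 2.24% of genes in that direction (log2 fold change 1.58 ± 0.48, limma adjusted p = 1.00). Without WT replicate 1 it was 1.02 ± 0.29 (limma adjusted p = 0.624). Of the genes that flank the osteocalcin copies, 5 were tested in each region and none passed in either. Of all genes, 11.4% passed in the metaphysis and 0.0% in the diaphysis.

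**Figure D3:**
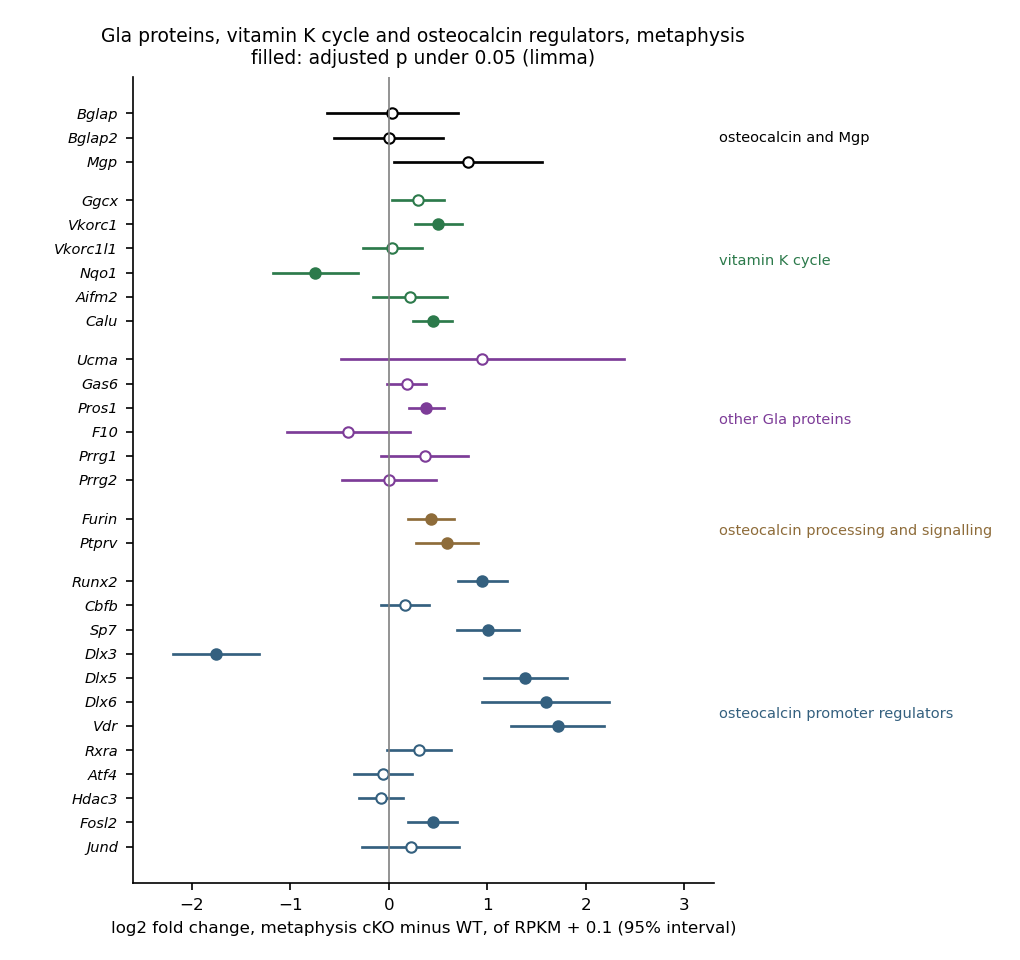
Log2 fold changes (cKO minus WT, RPKM + 0.1, limma) with 95% intervals in the metaphysis for osteocalcin and Mgp, the vitamin K cycle, other Gla proteins, osteocalcin processing and signalling genes, and osteocalcin promoter regulators; filled points have an adjusted p under 0.05. The osteocalcin copies sit at 0.04 and 0.00, Vdr at 1.71 and Dlx3 at -1.75.

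Mgp was higher on average in cKO metaphyses without passing the threshold. It had 133, 296 and 198 RPKM in cKO libraries, against 107, 159 and 86.0 RPKM in WT libraries. The means were 209 ± 82.1 RPKM in cKO and 117 ± 37.3 RPKM in WT (SD, n = 3 each), and the groups overlapped because cKO replicate 1 lay below WT replicate 2. The log2 fold change was 0.80 ± 0.32 (limma, adjusted p = 0.143) with an interval from 0.05 to 1.55. Mgp per summed osteocalcin was 0.0965, 0.108 and 0.0854 in cKO libraries, against 0.0428, 0.0880 and 0.0464 in WT libraries, a difference of 0.78 on the log2 scale (exact permutation test, p = 0.2). Only WT replicate 2 reached the range of the cKO libraries. Mgp per Col1a1 differed by 0.36 (exact permutation test, p = 0.6).

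Markers of chondrocytes, which make Mgp, differed in the same direction. Of 10 chondrocyte genes tested in the metaphysis, 6 rose and none fell, with a median log2 fold change of 1.21, beside the 7.51% of all genes called higher. The calls became 2 without cKO replicate 3 or WT replicate 1, 3 without WT replicate 2, and 4 to 7 without any 1 other library. Their summed RPKM was 1729 to 2605 in cKO libraries, against 991 to 1241 in WT libraries, and no marker was at 0. Matn1, matrilin 1 of cartilage, had 9.19, 8.80 and 10.9 RPKM in cKO libraries, against 1.64, 1.16 and 2.16 RPKM in WT libraries (2.50 ± 0.22, limma adjusted p = 0.00554), and like Hapln1, a cartilage link protein, kept its call without cKO replicate 3. Of vascular smooth muscle genes, another known source, 1 of 4 tested rose (Smtn, adjusted p = 0.0418, limma). With 1 library left out its limma adjusted p was up to 0.128, and it passed only without cKO replicate 1. The median of the smooth muscle genes was -0.02. Their summed level was 40.9 to 54.4 RPKM in cKO libraries, against 36.8 to 46.1 RPKM in WT libraries. Tendon and periosteum genes summed to 192, 296 and 203 RPKM in cKO libraries, against 182, 315 and 153 RPKM in WT libraries. Like Mgp, they were highest in replicate 2 of each genotype, and their groups overlapped. Skeletal muscle genes summed to 2542, 8079 and 2093 RPKM in cKO libraries, against 4755, 7144 and 4855 RPKM in WT libraries. The part of any of these tissues, or of uneven dissection, in the Mgp level was not tested.

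Vkorc1 rose in cKO metaphyses and was the 1 gene of the 5 that passed the threshold there. It had 51.8, 62.3 and 60.1 RPKM in cKO libraries, against 41.3, 38.0 and 43.3 RPKM in WT libraries. Each cKO value exceeded each WT value, as for 18.7% of all genes tested. The means were 58.1 ± 5.53 RPKM in cKO and 40.9 ± 2.66 RPKM in WT (SD, n = 3 each), a log2 fold change of 0.50 ± 0.10 (limma, adjusted p = 0.0260; interval 0.26 to 0.74). The call was lost without cKO replicate 3, WT replicate 1, WT replicate 2 or WT replicate 3 (adjusted p = 0.0868, 0.0780, 0.0883 and 0.0551 by limma), with fold changes from 0.45 to 0.55. In 1 fit of all 12 libraries the adjusted p was 0.378. Prss53, whose interval overlaps Vkorc1 on the same strand, had 1.79, 2.33 and 1.76 RPKM in cKO libraries, against 2.13, 1.49 and 1.39 RPKM in WT libraries, levels far under those of Vkorc1.

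In the metaphysis the Ggcx groups did not overlap either. Ggcx had 14.9, 11.9 and 12.5 RPKM in cKO libraries, against 10.7, 9.91 and 11.2 RPKM in WT libraries, with means of 13.1 ± 1.62 and 10.6 ± 0.641 RPKM (SD, n = 3 each). Its log2 fold change of 0.30 ± 0.11 did not pass (limma, adjusted p = 0.128; interval 0.03 to 0.56). Ggcx and Vkorc1 were thus 2 of the 5 genes without overlap, where 37.1% of all genes had none in either direction.

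**Figure D4:**
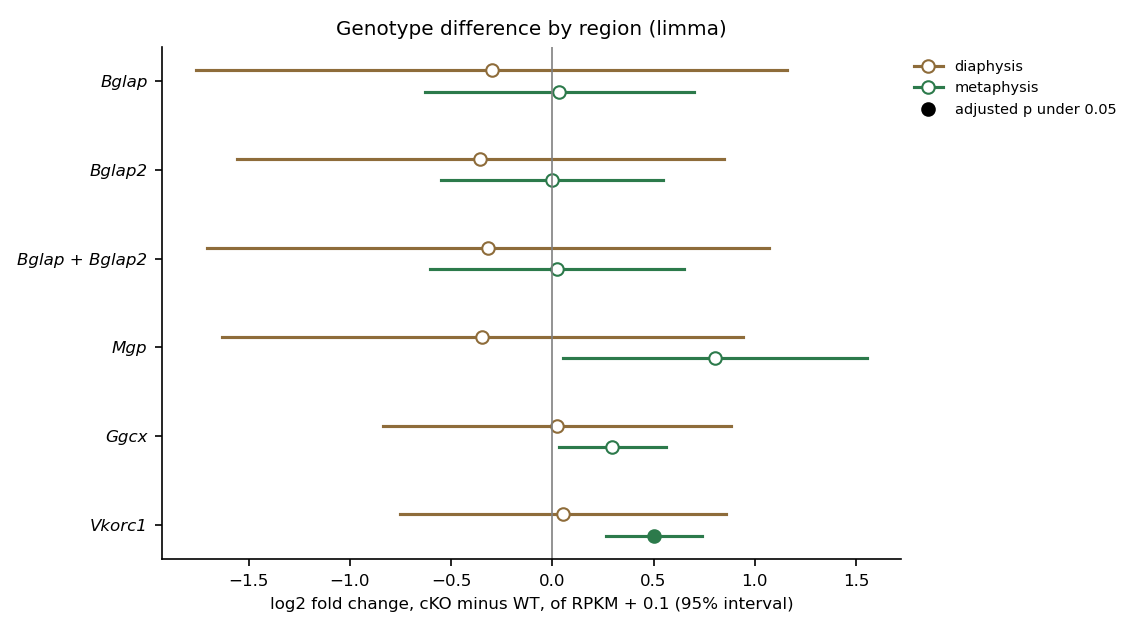
Log2 fold change (cKO minus WT, RPKM + 0.1) with its 95% interval from limma for each gene and for the summed osteocalcin copies, in the diaphysis and the metaphysis; a filled point has an adjusted p under 0.05. Vkorc1 in the metaphysis, at 0.50, is the filled point, and every diaphysis interval spans 0.

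Of the 6 vitamin K cycle genes tested in the metaphysis, Ggcx and Vkorc1 included, 2 rose and 1 fell. Of all genes, 7.51% were called higher and 3.89% lower. The median log2 fold change of the list was 0.26, against -0.04 over all genes. Its 3 calls became 0 without cKO replicate 3, WT replicate 1 or WT replicate 2, and 1 without WT replicate 3. Calu, calumenin, an endoplasmic reticulum protein known to restrain the carboxylation complex, had 111, 119 and 112 RPKM in cKO libraries, against 77.9, 86.0 and 87.2 RPKM in WT libraries (0.45 ± 0.08, limma adjusted p = 0.0218). Nqo1, a quinone reductase that can reduce vitamin K, had 4.08, 2.92 and 3.55 RPKM in cKO libraries, against 6.30, 6.95 and 4.71 RPKM in WT libraries (-0.75 ± 0.18, limma adjusted p = 0.0443). The groups of Calu and of Nqo1 did not overlap, and of all genes tested 18.4% were lower in every cKO library. Calu failed without cKO replicate 3 or any 1 WT library, and Nqo1 failed without cKO replicates 2 or 3 or WT replicates 1 or 2. Vkorc1l1, the paralogue of Vkorc1, had 15.5, 11.6 and 13.3 RPKM in cKO libraries, against 12.3, 12.6 and 14.3 RPKM in WT libraries, and its groups overlapped. Aifm2, a vitamin K reductase, overlapped too, at 0.22 on the log2 scale.

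Among other Gla proteins, 1 of the 6 tested in the metaphysis passed, beside 11.4% of all genes. Pros1, the anticoagulant protein S, had 25.6, 26.0 and 25.3 RPKM in cKO libraries, against 19.5, 19.2 and 20.3 RPKM in WT libraries (0.38 ± 0.08, limma adjusted p = 0.0240), and it failed without cKO replicate 3 or any 1 WT library. Gas6, a ligand of receptor kinases, was more abundant, with 48.2, 53.2 and 52.7 RPKM in cKO libraries, against 46.1, 42.6 and 47.4 RPKM in WT libraries. It did not pass (0.18, limma adjusted p = 0.202), although each cKO value exceeded each WT value, as for 18.7% of all genes tested. Ucma, a Gla protein of cartilage, had 3.61, 15.5 and 11.8 RPKM in cKO libraries, against 4.62, 8.24 and 2.32 RPKM in WT libraries, and like Mgp was highest in cKO replicate 2.

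Furin, a protease known to cleave pro-osteocalcin, and Ptprv, a phosphatase linked to osteocalcin carboxylation in mice, were the 2 processing and signalling genes tested. Both rose in the metaphysis, beside 7.51% of all genes. Furin had 28.2, 30.1 and 30.2 RPKM in cKO metaphyses, against 24.4, 19.7 and 21.8 RPKM in WT metaphyses (0.43 ± 0.10, limma adjusted p = 0.0387). Ptprv had 9.44, 6.90 and 8.55 RPKM in cKO libraries, against 5.70, 5.58 and 5.06 RPKM in WT libraries (0.59 ± 0.13, limma adjusted p = 0.0352). Furin failed with any 1 library left out, and Ptprv passed without cKO replicate 2 and in no other such fit. Gprc6a, proposed as an osteocalcin receptor, and Gpr158, its receptor in brain, had under 0.1 RPKM in every diaphysis library.

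Markers of several cell types moved with genotype in the metaphysis beside these genes. Besides the osteoblast and chondrocyte genes, 4 of 5 osteoclast genes and 4 of 6 endothelial genes rose, beside 7.51% of all genes. The osteoclast calls became 0 without cKO replicate 3 or WT replicate 1 and 1 without WT replicate 2, and the endothelial calls became 2 without any 1 of these 3 libraries. Erythroid genes had 2 of 6 lower, beside 3.89% of all genes, with a summed level of 399 to 722 RPKM in cKO libraries, against 943 to 1142 RPKM in WT libraries. B lymphoid genes had 4 of 6 lower, at 190 to 228 RPKM in cKO libraries, against 293 to 369 RPKM in WT libraries. The erythroid calls became 0 without cKO replicate 3 or any 1 WT library and up to 4 otherwise, and the B lymphoid calls became 0 without WT replicate 1 and 2 without cKO replicate 3. Of 5 osteocyte genes, 1 was lower (Pdpn, log2 fold change -1.08, limma adjusted p = 0.0183), which failed without cKO replicate 3 or any 1 WT library. The other 4 had fold changes above 0 without passing. The osteocyte median was 0.50, and their summed level was 395 to 574 RPKM in cKO libraries, against 230 to 357 RPKM in WT libraries. The osteoblast sum was 27882 to 29722 RPKM in cKO libraries, against 18127 to 23086 RPKM in WT libraries, and its part in the Vkorc1 result was not tested.

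In the diaphysis none of the 5 genes passed, and neither did any of the 12540 genes tested (0.0% by limma at the adjusted threshold, with 86 genes at an unadjusted p under 0.05). Bglap had 859, 2110 and 1278 RPKM in cKO diaphyses, against 614, 2192 and 3212 RPKM in WT diaphyses. Bglap2 had 594, 1030 and 723 RPKM in cKO libraries, against 424, 1230 and 1779 RPKM in WT libraries. Both copies spread more widely in WT than in cKO, from the lowest to the highest of the 6 values. The log2 fold changes were -0.30 ± 0.63 for Bglap and -0.36 ± 0.52 for Bglap2 (limma, adjusted p = 1.00 for each), with an interval for Bglap from -1.76 to 1.16. The sum was 1453, 3140 and 2001 RPKM in cKO libraries, against 1038, 3422 and 4991 RPKM in WT libraries (exact permutation test, p = 0.7).

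Mgp, Ggcx and Vkorc1 followed the same library order at the extremes. Mgp had 66.5, 89.7 and 69.6 RPKM in cKO diaphyses, against 34.7, 148 and 166 RPKM in WT diaphyses, and the cKO libraries lay between WT replicate 1 and the other 2. Ggcx had 7.72, 10.7 and 10.4 RPKM in cKO libraries, against 5.11, 10.8 and 14.7 RPKM in WT libraries. Vkorc1 had 39.8, 41.5 and 42.7 RPKM in cKO libraries, against 21.8, 48.7 and 59.3 RPKM in WT libraries. In all 5 genes, WT replicate 1 was the lowest and WT replicate 3 the highest of the 6, so the 0 of 5 without overlap stands beside 3.03% of all genes. The fold changes were -0.35 ± 0.55 for Mgp, 0.03 ± 0.37 for Ggcx and 0.05 ± 0.35 for Vkorc1 on the log2 scale (limma, adjusted p = 1.00 for each).

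Without diaphysis WT replicate 1 all 5 genes were lower in cKO, and none passed. That library was the lowest of the 6 for each gene and was set apart partly by its low osteoblast sum. Leaving it out could therefore only move each difference downward, which is no independent test of direction. Bglap then differed by -1.004 (limma, adjusted p = 0.926), Bglap2 by -0.96 (adjusted p = 0.694) and Mgp by -1.07 ± 0.19 (adjusted p = 0.304). Ggcx differed by -0.40 and Vkorc1 by -0.38. In each gene the 3 cKO values were then below both remaining WT values, as for 9.25% of the 12469 genes tested in that comparison, none of which passed (0.0% by limma, with 570 at an unadjusted p under 0.05). The separation was narrow for Ggcx and Bglap, at 10.7 RPKM in cKO replicate 2 against 10.8 RPKM in WT replicate 2 for Ggcx. Of other bone matrix genes, Col1a1 then differed by -0.82, Ibsp by -0.72 and Sparc by -0.72 on the log2 scale, without passing. With all 6 libraries they differed by -0.02, 0.13 and 0.002, so their direction too turned on that library. The median of the 10 osteoblast genes was -0.29 without WT replicate 1, against 0.23 with it. For the 5 osteocyte genes tested it was 0.02, against 0.68. The osteocalcin sum then differed by -0.98, against -0.32 with all 6 libraries. With cKO replicate 1 left out instead, the library with the next highest globin share (26.5%), Bglap differed by 0.011 and Bglap2 by -0.18. In that fit Mgp differed by -0.26, Ggcx by 0.17 and Vkorc1 by 0.080, and none passed. The osteocalcin sum per Col1a1, which does not depend on the globin share, was 0.291, 0.526 and 0.370 in cKO diaphyses, against 0.576, 0.413 and 0.444 in WT diaphyses (exact permutation test, p = 0.4). WT replicate 1 had the lowest sum and the highest ratio to Col1a1 of the 6. Mgp per Col1a1 was 0.0133, 0.0150 and 0.0129 in cKO libraries, against 0.0193, 0.0179 and 0.0148 in WT libraries (exact permutation test, p = 0.2), overlapping at cKO replicate 2 and WT replicate 3. Mgp per osteocalcin sum differed by -0.03 (exact permutation test, p = 1.0). Without WT replicate 1 the differences on the log2 scale were -0.16 for osteocalcin per Col1a1, against -0.30 with it, -0.25 for Mgp per Col1a1, against -0.33, and -0.09 for Mgp per osteocalcin sum. The sum, the Bglap2 share and these 3 ratios made 10 exact tests over both regions, and each had a Benjamini-Hochberg adjusted p of 1.00.

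The difference of the genotype effect between regions was tested in 1 fit of all 12 libraries, in which none of 12321 genes passed (0.0% by limma, with 495 at an unadjusted p under 0.05). It was 1.149 ± 0.72 on the log2 scale for Mgp (metaphysis minus diaphysis, adjusted p = 0.908) and 0.45 ± 0.40 for Vkorc1 (adjusted p = 0.909). For Bglap it was 0.34 ± 0.77 and for Bglap2 0.35 ± 0.63. Without diaphysis WT replicate 1, Mgp differed by 1.87 ± 0.42 and Vkorc1 by 0.88 ± 0.17 (limma, adjusted p = 0.0487 for each). In that fit 247 of the 12284 genes tested passed. Both calls thus turned on that library.

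Set side by side without a test, since the tables were normalized separately, the osteocalcin sum averaged 2149 ± 702 RPKM in metaphysis cKO libraries and 2198 ± 860 RPKM in diaphysis cKO libraries. In WT it averaged 2056 ± 396 RPKM in the metaphysis and 3150 ± 1990 RPKM in the diaphysis (SD, n = 3 each). Mgp averaged 209 ± 82.1 RPKM in metaphysis cKO libraries and 75.3 ± 12.6 RPKM in diaphysis cKO libraries, but 117 ± 37.3 and 116 ± 71.2 RPKM in WT metaphyses and diaphyses, which do not differ beyond their spread with all libraries kept. Vkorc1 averaged 58.1 ± 5.53 RPKM in cKO metaphyses and 41.3 ± 1.46 RPKM in cKO diaphyses, against 40.9 ± 2.66 and 43.3 ± 19.3 RPKM in the corresponding WT groups. Without diaphysis WT replicate 1, the other 2 diaphysis WT libraries averaged 4206 RPKM for the osteocalcin sum, 157 RPKM for Mgp and 54.0 RPKM for Vkorc1. Ggcx averages ran from 9.61 to 13.1 RPKM over the 4 groups.

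The genes whose levels most resembled the osteocalcin sum over the 12 libraries, by Pearson's r of log2 values centred on each region's mean, were Serpinf1 (r = 0.96), Enpp5 (0.94), Nnmt, Gstm2, Nr1d2 and Cnn3 (each 0.93), of 11546 genes. Serpinf1 encodes pigment epithelium-derived factor, an osteoblast product needed for normal bone mineralization. None of the 6 passed the genotype threshold in either region. For Mgp they were Susd5 (r = 0.97), Cyp2d22 (0.96), Comp, Eno2, Pcolce2 and Col27a1 (each 0.95). Comp and Col27a1 encode cartilage matrix proteins, and Pcolce2 enhances procollagen processing. Pcolce2 also rose in cKO metaphyses (0.79, limma adjusted p = 0.0358). The libraries of a region share one table and one range of globin shares, and diaphysis WT replicate 1 is the lowest diaphysis point for all 12 genes. Over the other 11 libraries the r values were 0.88 to 0.93 for the 6 genes most like osteocalcin and 0.93 to 0.95 for those most like Mgp. The genes were chosen by r over all 12, so these values are not independent of that choice. For the 6 most like osteocalcin, r was 0.94 to 0.99 within the diaphysis. Within the metaphysis it was 0.46 (Cnn3) to 0.88 (Enpp5). For those most like Mgp, it was 0.965 to 0.996 within the diaphysis and 0.89 to 0.95 within the metaphysis.

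The r between the osteocalcin sum and Mgp was 0.81 over the 12 libraries and 0.69 over the 11 without diaphysis WT replicate 1. Within the 6 libraries of a region it was 0.95 in the diaphysis, that library included, and 0.47 in the metaphysis. Osteocalcin against Col1a1 gave 0.79 over the 12 libraries and 0.64 over the 11, with 0.92 in the diaphysis and -0.08 in the metaphysis. Mgp against Col2a1, the cartilage collagen, gave 0.86 over the 12 and 0.79 over the 11, with 0.81 in the diaphysis and 0.94 in the metaphysis. The converse pairs were also high over the 12, at 0.78 for Mgp against Col1a1 and 0.63 for osteocalcin against Col2a1. In the metaphysis these gave 0.29 and 0.49. By r over the 12, Col1a1 ranked 424 of 11546 genes for osteocalcin, and Col2a1 ranked 209 of 11545 for Mgp. Each value within a region describes 6 libraries of 2 genotypes, whose globin shares differ as given above.

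**Figure D5:**
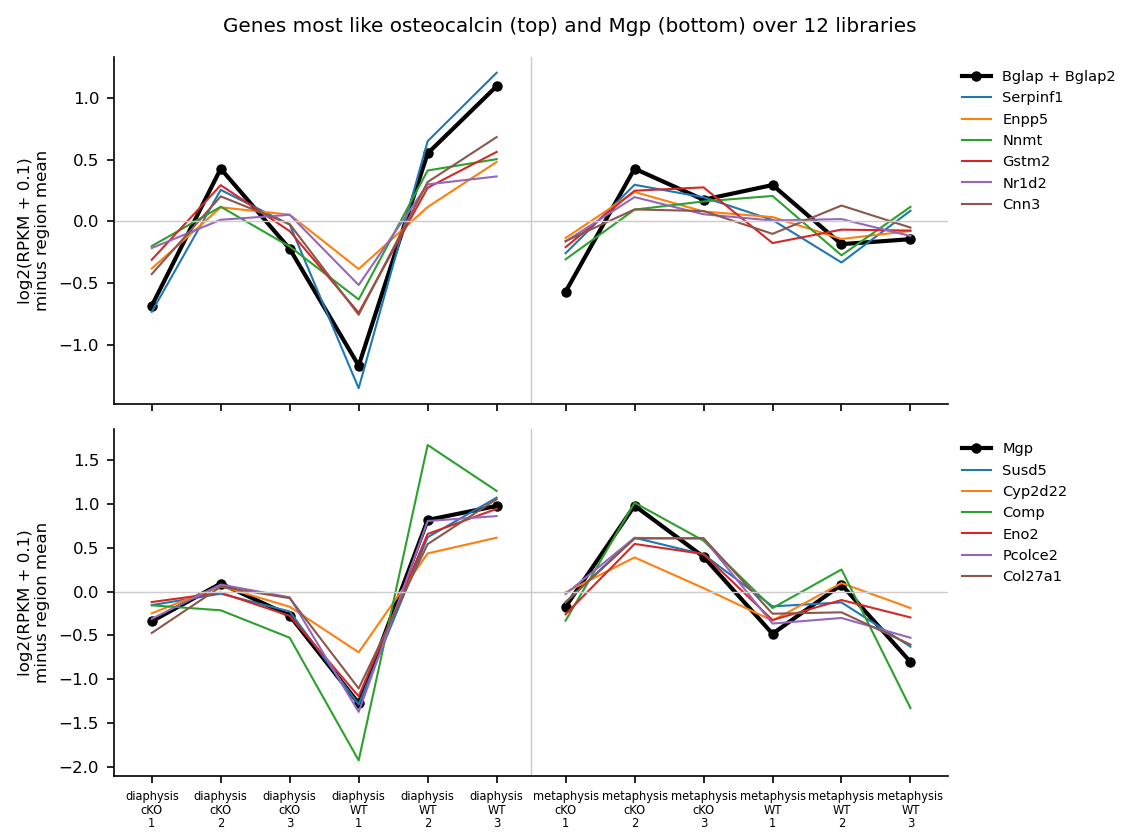
Log2(RPKM + 0.1) minus the region's mean in each of the 12 libraries for the summed osteocalcin copies with the 6 genes most like them (top) and for Mgp with its 6 (bottom); lines join the values of a gene and the libraries of a group have no order. Serpinf1 (r = 0.96) and Susd5 (r = 0.97) lead the panels, and diaphysis WT replicate 1 is the low point of the diaphysis in every line.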

How the data were processed

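Messenger RNA was extracted with Trizol and made into libraries with the TruSeq RNA kit, per the labels' protocols. The kit does not mark strand. The authors deposited 1 table per region with values in RPKM per RefSeq transcript, per the file headers. Build mm9 and the tools Partek 6.6, TopHat 1.3.2, CASAVA 1.8.2 and Bowtie 0.12.7.0 were used, per the submitters' processing notes. Not given in the sources used here are the annotation release, any filter and the treatment of reads that match several gene copies.

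Groups came from the labels, and replicates were numbered in record order, which pairs nothing. Depth was estimated from low values, of which 73.1% to 78.1% lay within 0.1 of a whole read (chance gives 20%), too few to rebuild counts. Transcripts were summed per symbol. Genes with at least 1 RPKM in 3 of a region's 6 libraries were kept and taken as log2(RPKM + 0.1), a scale that understates the fold change of low genes. Each region was fitted with limma 3.58.1 under R 4.3.3, using the mean-variance trend, 2-sided, Benjamini-Hochberg over all genes tested, threshold 0.05. The difference between regions was a contrast over all 12 libraries. Sums, shares and ratios, on a log2 scale except shares, had exact permutation tests (scipy 1.17.1). The scripts were tested on simulated data.

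The 5 genes and the gene lists were chosen with earlier results of these data known. From each list, genes past the threshold were named, up to 4 with the smallest p, and others by values only. The 6 genes most like osteocalcin and Mgp were named by r, leaving out osteocalcin copies and unnamed gene models. Alternatives were the pseudocount, the filter, 2 scalings, transcripts kept apart, a joint fit, other denominators and leaving out each library. Items withheld from the text, and 1 alternative sum that needs them, are not reported here.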

Additional observations from a re-analysis of the deposited data

How the results depend on the processing

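No paired analysis was possible because replicates were numbered in record order only. Direction and call held under every alternative for Mgp and Ggcx in the metaphysis. Vkorc1 in the metaphysis lost its call in 1 fit of all 12 libraries (0.50) and with some libraries left out (0.45 to 0.58). Bglap2 in the metaphysis, near 0 in the main fit, changed sign. It was 0.0058 with equal summed RPKM without globin and 0.013 with equal medians. In the diaphysis the second Bglap transcript alone gave 0.35 ± 0.51, against -0.30 ± 0.63 for the whole gene. The cause was not tested. With 1 library left out, metaphysis Bglap ran from -0.19 to 0.35 and Bglap2 from -0.19 to 0.25. In the diaphysis Bglap ran from -1.004 to 0.19, Bglap2 from -0.96 to 0.078, Mgp from -1.07 to 0.056, Ggcx from -0.40 to 0.35 and Vkorc1 from -0.38 to 0.34. The difference between regions ran from -0.15 to 1.04 for Bglap, -0.080 to 0.95 for Bglap2, 0.75 to 1.87 for Mgp, -0.055 to 0.70 for Ggcx and 0.16 to 0.88 for Vkorc1. With Ibsp in place of Col1a1 the metaphysis ratio was -1.15 for osteocalcin and -0.37 for Mgp. With Col1a2 it was -0.28 for osteocalcin and 0.50 for Mgp. Of all metaphysis genes 1441 passed, against 789 without a filter, 959 as transcripts, 7 in the joint fit and 105 (without cKO replicate 3) to 1418 with 1 library left out. Scaling moved the median of all genes by under 0.1. Values below 1 RPKM rest on few reads.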
